A study of Homo sapiens with 12 samples.

Results

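The S100 genes encode small calcium-binding proteins that share the EF-hand fold, and 8 of them, S100A4, S100A6, S100A8, S100A9, S100A10, S100A11, S100A12 and S100A13, are described here in THP-1 cells, an established human monocytic leukemia line. They were chosen by gene symbol from the 62914 entries of the count table, and all 8 were found and passed the filter on low counts, which 16628 genes passed in all. The 12 libraries form 4 groups of 3: untreated cells (0 μM drug), cells given 1 μg/mL of the cyclic dinucleotide 3'-3'-cGAMP, which serves as the positive control for innate antiviral signaling, and cells given chlorquinaldol at 20 μM or at 50 μM. Every treatment lasted 8 h, all groups are the same line with no genetic change named, and no vehicle is named for the untreated cells. The design sets the drug, a chlorinated hydroxyquinoline antiseptic, beside untreated cells and a known STING agonist.

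Libraries held 17588500 to 19180600 counts assigned to Ensembl genes, and the 8 genes took 0.103% to 0.159% of them. Levels of 1 gene across libraries are given as CPM, the share of a library's counts scaled by the trimmed mean of M-values (TMM). Levels between genes are given as FPKM, which is per effective transcript length. In untreated replicate 1, counts and FPKM imply 178 bases for S100A8 (main transcript 523) and 434 for S100A10 (main transcript 1202). Orders, ratios and shares between genes depend on these lengths. A log2 change is followed by its standard error, and a gene is called changed where the edgeR quasi-likelihood p-value, adjusted over all 16628 genes, is below 0.05. The labels do not say whether replicates were separate cultures, so the p-values describe the spread between these libraries, which may be technical. In bulk RNA, fewer cells with a transcript and less of it in each cell cannot be told apart.

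S100 proteins act inside cells by binding partner proteins when calcium rises, and several are also released and act as ligands. S100A8 and S100A9 pair to form calprotectin, an abundant protein of monocytes and neutrophils that withholds zinc and manganese from microbes and signals through TLR4 and the receptor RAGE. S100A12 is a further myeloid ligand of RAGE, while S100A10 and S100A11 are known for binding annexins at membranes, S100A4 for binding non-muscle myosin, S100A6 for binding CACYBP, and S100A13 for the export of proteins without a signal peptide.

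All 8 genes lie on chromosome 1 of GRCh38 within 1648446 bases (151982915 to 153631360, GENCODE 29). S100A9, S100A12 and S100A8 stand next to each other among these genes, within 33335 bases (153357854 to 153391188), and S100A10 and S100A11 lie together at the other end of the span (151982915 to 152047907). The sequences of the 3 adjacent genes are shown because these genes fell together. Each is the 250 bases before the RefSeq start nearest to the start of the main GENCODE transcript (GRCh38.p14), 5′ to 3′ on the gene's own strand, with TATA box, C/EBP and AP-1 letters in capitals and any other motif left in lower case.
S100A9, chr1:153357604-153357853, plus strand: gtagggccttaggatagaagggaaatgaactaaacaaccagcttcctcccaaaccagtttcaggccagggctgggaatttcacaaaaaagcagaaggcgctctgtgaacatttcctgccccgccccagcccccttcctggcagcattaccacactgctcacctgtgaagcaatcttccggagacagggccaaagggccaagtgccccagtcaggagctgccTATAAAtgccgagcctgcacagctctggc
S100A12, chr1:153375622-153375871, minus strand: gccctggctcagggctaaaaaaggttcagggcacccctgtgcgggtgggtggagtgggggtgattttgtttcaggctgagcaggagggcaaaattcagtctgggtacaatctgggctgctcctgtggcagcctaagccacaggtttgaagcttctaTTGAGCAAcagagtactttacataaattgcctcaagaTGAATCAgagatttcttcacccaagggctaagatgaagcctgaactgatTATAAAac
S100A8, chr1:153391189-153391438, minus strand: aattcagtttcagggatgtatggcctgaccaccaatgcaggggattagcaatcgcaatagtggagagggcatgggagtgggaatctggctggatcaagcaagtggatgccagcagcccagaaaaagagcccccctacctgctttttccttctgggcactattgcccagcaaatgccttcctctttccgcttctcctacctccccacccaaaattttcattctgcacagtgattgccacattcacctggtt

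The capitals mark a TATA box at position −29 of S100A9, and, in S100A12, a C/EBP match (TTGAGCAA, −94), an AP-1 match (TGAATCA, −57) and TATAAA letters at −8, counted from the RefSeq start. The main GENCODE transcript of S100A12 starts 28 bases further upstream, so its TATAAA letters lie within that transcript. The S100A8 stretch held none of these motifs. RefSeq lists 3 starts for S100A8, and a TATA box lies 29 bases before a start further into the gene, in the following stretch (chr1:153391085-153391114, minus strand):
S100A8, TATA box in capitals: aagcctaaccgcTATAAAaaggagctgcct
For the counts below, motifs were searched on both strands from 250 bases before to 50 after the start nearest to the main GENCODE transcript of each gene. They were TATA box TATAAA, C/EBP TTGCNNAA, AP-1 TGANTCA, antioxidant response element core TGACNNNGC, GAS TTCNNNGAA, the interferon response element core, HIF core ACGTG, metal response element core TGCACNC or TGCGCNC, SP1 GGGCGG and the kappa B site. TATA box letters were found for 4 of the 8 genes (S100A9, S100A12, S100A4 and S100A13), in S100A12 at −8, and in 11.5% of all 35116 promoters of the table. C/EBP letters were found for S100A12 and S100A11, against 10.5% of promoters, and AP-1 letters for S100A12, against 7.71%. Metal response element letters occurred for S100A6 and S100A11 and in 29.6% of promoters, and HIF letters for S100A10 and in 21.4%. SP1 letters were present for 4 of the 8 genes and in 45.0% of promoters, and the matches of different motifs did not overlap each other. The antioxidant, GAS, interferon and kappa B letters were in none of the 8 windows and in 13.3%, 7.66%, 3.57% and 1.91% of promoters. Other RefSeq starts, left out of these counts, added a TATA box for S100A8. For S100A13 they added antioxidant, metal response element and SP1 letters. The start used lay 734, 531 and 231 bases from the main GENCODE start for S100A13, S100A10 and S100A6, and at most 31 for the others. The windows of S100A13 and S100A10 do not reach that main start, so their matches do not describe the promoter of the main transcript. The members that hold TATA box letters did not share a direction of change, and a match in letters does not show a bound site.

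In untreated cells S100A4 was the highest of the 8 genes, at 1343 ± 103 FPKM (SD, n = 3), and stood 115th among the tested genes. S100A6 (652 ± 31.5 FPKM), S100A9 (640 ± 25.2 FPKM) and S100A11 (511 ± 11.3 FPKM) followed. The FPKM levels of S100A6 and S100A9 lay within their spread of each other. In mean CPM, which takes no account of length, S100A9 (208) stood above S100A6 (131), and S100A10 (105) above S100A8 (67.6). S100A8 had 392 ± 28.6 FPKM and S100A10 249.7 ± 30.6 FPKM, while S100A12 (11.5 ± 1.86 FPKM) and S100A13 (5.64 ± 0.360 FPKM) were far lower. At 50 μM chlorquinaldol the order was another one, with S100A10 first (1807 ± 173 FPKM), S100A4 second (1015 ± 135 FPKM), and S100A9 and S100A8 at 53.3 ± 7.25 and 23.3 ± 2.35 FPKM.

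**Figure D1:**
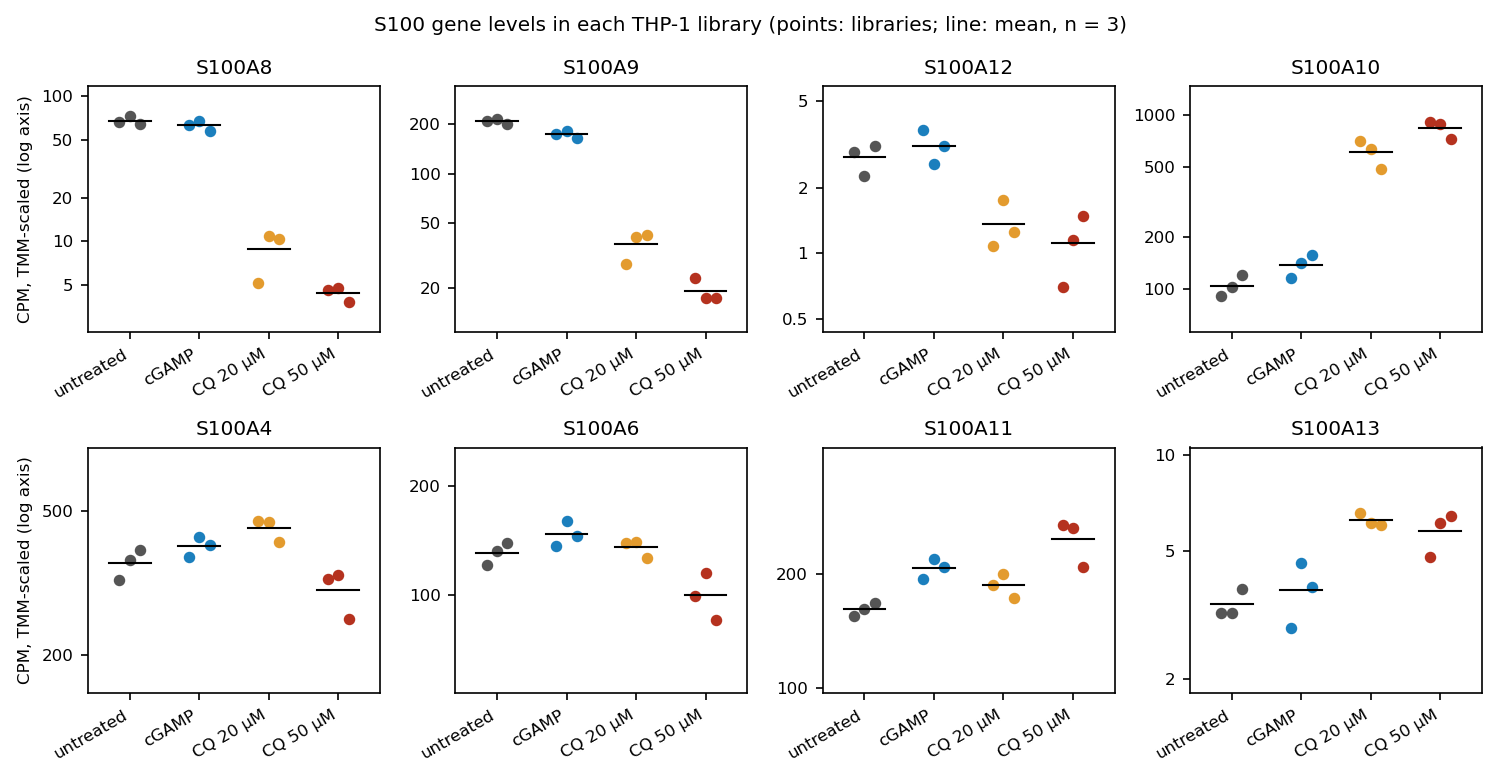
Level of each S100 gene in every library, in TMM-scaled CPM on a log axis, for untreated cells, cGAMP and chlorquinaldol (CQ) at 20 μM and 50 μM. Points are libraries and lines are means of 3; S100A8 and S100A9 are lower, and S100A10 higher, in all 6 chlorquinaldol libraries than in the 6 others.

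The calprotectin genes fell sharply with chlorquinaldol and S100A12 fell with them. S100A8 stood at 65.8, 73.1 and 64.0 CPM in untreated replicates 1, 2 and 3 and at 63.0, 67.5 and 57.6 CPM with cGAMP. At 20 μM chlorquinaldol it stood at 5.19, 10.8 and 10.5 CPM (101, 190 and 209 counts), and at 50 μM at 4.64, 4.82 and 3.83 CPM. The drug libraries lay below every other library and the groups at 20 μM and 50 μM did not overlap, although replicate 1 at 20 μM came close to the higher dose. The log2 change from untreated cells was −2.94 ± 0.17 at 20 μM (7.68-fold lower, adjusted p = 5.31e-10) and −3.93 ± 0.19 at 50 μM (15.2-fold lower, adjusted p = 1.17e-11). Without replicate 1 at 20 μM the smaller of these was −2.62 on the log2 scale.

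S100A9, the other calprotectin subunit, stood at 209, 214 and 202 CPM in untreated libraries and at 175, 183 and 166 CPM with cGAMP. With chlorquinaldol it stood at 28.0, 41.0 and 42.1 CPM at 20 μM and at 23.1, 17.4 and 17.4 CPM at 50 μM. None of the 4 groups overlapped with another. The log2 changes were −2.49 ± 0.13 (5.62-fold lower, adjusted p = 1.68e-10) and −3.43 ± 0.14 (10.8-fold lower, adjusted p = 2.00e-12). Among the 16628 genes, ordered from the largest decrease, S100A8 was 58th at 20 μM and 67th at 50 μM, and S100A9 was 98th and 107th.

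S100A12, the RAGE ligand, was rare in these cells and its values rest on 12 to 71 counts per library. It stood at 2.91, 2.25 and 3.11 CPM in untreated cells, 3.68, 2.56 and 3.10 CPM with cGAMP, 1.08, 1.76 and 1.25 CPM at 20 μM, and 0.696, 1.15 and 1.48 CPM at 50 μM. Every drug library lay below every untreated one, and the drug groups overlapped with each other. The decrease was 2.03-fold at 20 μM (log2 −1.02 ± 0.26, adjusted p = 0.00287) and 2.47-fold at 50 μM (log2 −1.30 ± 0.27, adjusted p = 0.000363).

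As S100A8 fell further than S100A9, the FPKM ratio of S100A9 to S100A8 was 1.64 ± 0.0736 in untreated cells, 1.47 ± 0.0281 with cGAMP, 2.32 ± 0.483 at 20 μM and 2.30 ± 0.361 at 50 μM. The drug libraries, at 1.91 to 2.87, all exceeded the untreated ones, at 1.55 to 1.68. The difference between the changes of these genes was not tested.

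S100A10 rose more than any other of the 8 genes. This gene encodes the light chain that binds annexin A2, and the complex is known as a plasminogen receptor on the cell surface. It stood at 91.6, 103 and 121 CPM in untreated cells and at 117, 142 and 158 CPM with cGAMP. With chlorquinaldol it stood at 708, 638 and 489 CPM at 20 μM and at 915, 884 and 728 CPM at 50 μM. All 6 drug libraries were at least 3 times as high as any other, and the lowest 50 μM library stood above the highest 20 μM library. The increase from untreated cells was 5.83-fold at 20 μM (log2 2.54 ± 0.15, adjusted p = 5.48e-10) and 8.02-fold at 50 μM (log2 3.00 ± 0.15, adjusted p = 1.99e-11).

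S100A11, which binds annexin A1, moved less. It stood at 155, 161 and 168 CPM in untreated cells, 194, 218 and 208 CPM with cGAMP, 186, 199.8 and 172 CPM at 20 μM and 268, 263 and 208 CPM at 50 μM. The cGAMP libraries and the 50 μM libraries lay above all untreated ones. At 50 μM the increase was 1.53-fold (log2 0.61 ± 0.10, adjusted p = 2.15e-05). At 20 μM the log2 difference of 0.21 ± 0.10 was not called (adjusted p = 0.0770), though the libraries did not overlap, and it was called in 5 alternative fits and without replicate 3 at 20 μM (adjusted p = 0.0211 to 0.0480).

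The combined make-up of the 8 transcripts shifted accordingly. S100A10 made up 6.55% ± 0.585 of their summed FPKM in untreated cells and 44.5% ± 0.906 at 50 μM, with 31.6% ± 3.16 at 20 μM. S100A8, S100A9 and S100A12 together went from 27.5% ± 2.01 to 3.79% ± 1.18 at 20 μM and 2.00% ± 0.194 at 50 μM. The sum itself was 3806 ± 147 FPKM in untreated cells, 4573 ± 326 at 20 μM, where all libraries stood above the untreated ones, and 4068 ± 443 at 50 μM, where they overlapped.

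**Figure D2:**
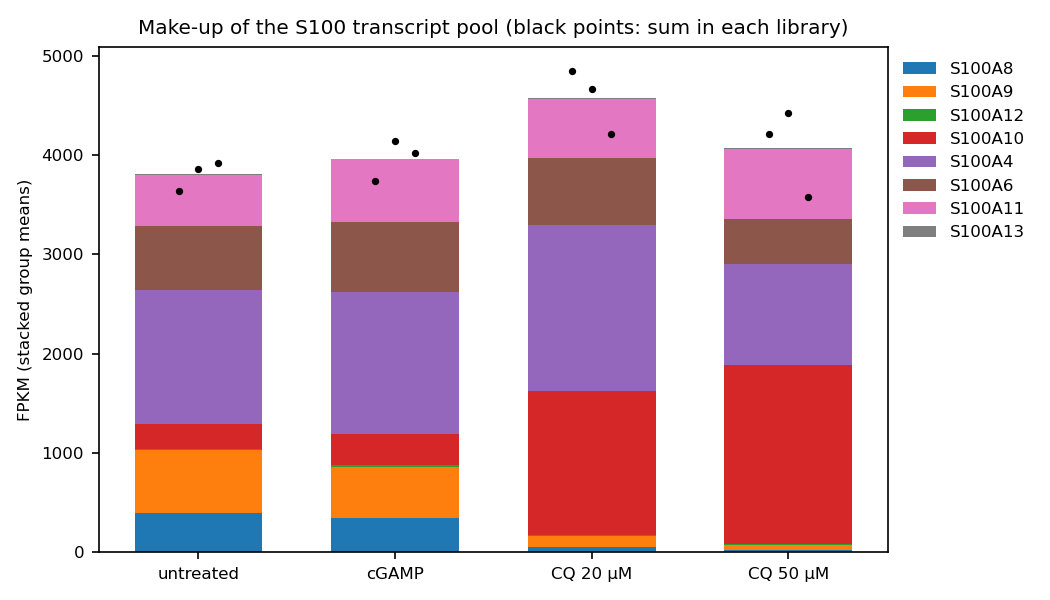
Summed FPKM of the 8 S100 genes as stacked group means (y axis from 0) for untreated cells, cGAMP and chlorquinaldol (CQ) at 20 μM and 50 μM; black points are the sums of single libraries. S100A10 grows from 6.55% to 44.5% of the sum at 50 μM as S100A8 and S100A9 shrink.

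S100A4 and S100A6, which bind cytoskeletal and signalling proteins, changed by less than 1.5-fold from untreated cells. S100A4 stood at 324, 367 and 391 CPM in untreated cells, 373, 424 and 403 CPM with cGAMP, 468, 466 and 411 CPM at 20 μM and 326, 334 and 252 CPM at 50 μM. It was higher than in untreated cells at 20 μM, in every library (log2 0.32 ± 0.11, adjusted p = 0.0178). At 50 μM the libraries overlapped with the untreated ones and the call was marginal (log2 −0.25 ± 0.11, adjusted p = 0.0498). This last call was lost in DESeq2 (adjusted p = 0.0885), in 4 other alternative fits (0.0619 to 0.115) and without 50 μM replicate 1 (0.0983), 2 (0.0744) or 3 (0.611) or untreated replicate 2 (0.112) or 3 (0.187). Without 50 μM replicate 3 the log2 difference was −0.06. The call at 20 μM was lost without untreated replicate 1 (adjusted p = 0.0959) and in limma on unfiltered log2(FPKM + 1) (0.0571).

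S100A6 stood at 121, 132 and 139 CPM in untreated cells, 136, 159.9 and 146 CPM with cGAMP, 139, 140.2 and 127 CPM at 20 μM and 99.2, 115 and 85.3 CPM at 50 μM. It was below every untreated library at 50 μM only (log2 −0.39 ± 0.10, adjusted p = 0.00243), and this call was lost without 50 μM replicate 3 (log2 −0.22, adjusted p = 0.0532). At 20 μM its log2 difference was 0.05 ± 0.10 (adjusted p = 0.690), with a 95% interval of −0.16 to 0.26.

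S100A13, known for the export of FGF1 and interleukin 1 alpha, stood at 3.22, 3.23 and 3.83 CPM in untreated cells and 2.90, 4.59 and 3.87 CPM with cGAMP. It stood at 6.57, 6.15 and 6.05 CPM at 20 μM and 4.81, 6.14 and 6.46 CPM at 50 μM, above every untreated library. It rose 1.83-fold at 20 μM (log2 0.87 ± 0.17, adjusted p = 0.000324) and 1.70-fold at 50 μM (log2 0.76 ± 0.17, adjusted p = 0.000789). S100A13 overlaps S100A1 on the opposite strand and AL162258.1 on its own, and the strand used in counting is not given in the sources used here, so reads from the part they share cannot be told apart. The counts also vary in how they were assigned to transcripts. Counts and FPKM of S100A13 imply an effective length of 417 to 703 bases between libraries. S100A4 overlaps S100A3 on the same strand, S100A6 overlaps BX470102.1 and S100A11 overlaps AL450992.1, both on the opposite strand.

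**Figure D3:**
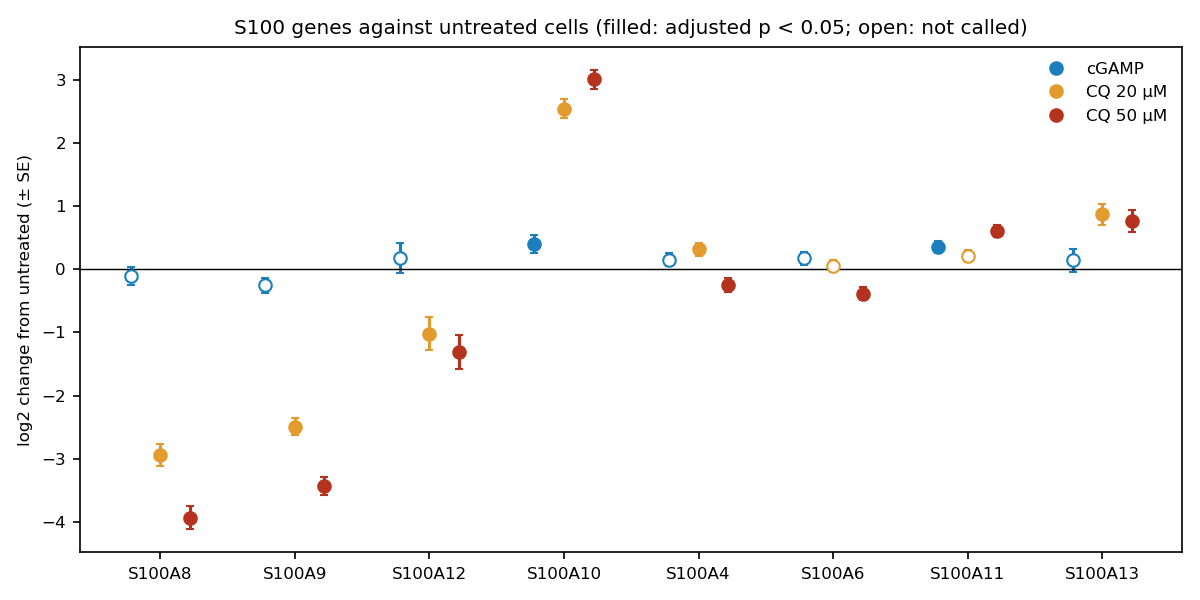
Log2 change from untreated cells (y axis, ± SE) of the 8 S100 genes (x axis) for cGAMP and chlorquinaldol (CQ) at 20 μM and 50 μM; filled points passed the test (adjusted p below 0.05). S100A8, S100A9 and S100A12 lie below 0 and S100A10 and S100A13 above 0 at both drug doses.

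Counted together, 3 of the 8 genes rose and 3 fell at 20 μM chlorquinaldol, where 55.1% of all tested genes were called (27.1% higher, 28% lower). At 50 μM 3 rose and 5 fell, where 66.9% of all tested genes were called (32.2% higher, 34.7% lower). With most genes called, these counts say little about the 8 genes, and the sizes of the changes carry more. The median log2 change of the 8 genes was 0.13 at 20 μM and −0.32 at 50 μM, beside −0.00 and −0.03 over all genes tested. The middle 50% of all tested genes lay between −0.40 and 0.42 on the log2 scale at 20 μM and between −0.60 and 0.56 at 50 μM. S100A8, S100A9, S100A12, S100A10 and S100A13 were outside that range at both doses, and S100A11 at 50 μM. Libraries did not overlap with the untreated ones for 7 of the 8 genes at each dose. The same share over all tested genes was not computed, so this count has no baseline.

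cGAMP was the positive control, and the S100 genes moved little with it. Of the 8, S100A10 (log2 0.40 ± 0.14, adjusted p = 0.0478) and S100A11 (log2 0.36 ± 0.10, adjusted p = 0.0116) rose and none fell, where 23.3% of all tested genes were called (11.6% higher, 11.8% lower). For S100A10 the cGAMP and untreated libraries overlapped, whereas those of S100A11 did not. S100A8 had a log2 difference of −0.11 ± 0.15 (adjusted p = 0.638, 95% interval −0.42 to 0.20) and S100A9 one of −0.25 ± 0.12 (adjusted p = 0.143), with every cGAMP library below every untreated one. The S100A10 call was lost with upper-quartile scaling (adjusted p = 0.0645), in limma on log2(FPKM + 1) (0.108), and without untreated replicate 1 (0.195) or 2 (0.130) or cGAMP replicate 2 (0.0773) or 3 (0.191). The S100A11 call was lost without untreated replicate 1 (0.0546) and in limma on unfiltered log2(FPKM + 1) (0.0706), and in a fit of these groups alone S100A6 (log2 0.21, adjusted p = 0.0337) and S100A9 (log2 −0.21, adjusted p = 0.0232) were called too.

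Between the drug doses, 2 of the 8 genes were higher and 4 lower at 50 μM than at 20 μM, where 38.1% of all tested genes were called (19.1% higher, 19% lower). S100A8 was 1.98-fold lower (log2 −0.99 ± 0.21, adjusted p = 0.00132) and S100A9 1.92-fold lower (log2 −0.94 ± 0.14, adjusted p = 3.96e-05). S100A4 (log2 −0.56 ± 0.11) and S100A6 (log2 −0.44 ± 0.10) were lower as well, and all 3 libraries at 50 μM lay below those at 20 μM for each of these 4 genes. S100A10 (log2 0.46 ± 0.14, adjusted p = 0.0142) and S100A11 (log2 0.40 ± 0.10, adjusted p = 0.00278) were higher. The S100A10 difference was not called without 20 μM replicate 3 (adjusted p = 0.0615) or in limma on log2(FPKM + 1) (0.0856), and that of S100A11 not in limma without a filter (0.0783). For S100A12 (95% interval −0.91 to 0.34) and S100A13 (−0.45 to 0.23) no dose difference was called.

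Against cGAMP, 2 of the 8 genes were higher and 3 lower at 20 μM, where 55.6% of all tested genes were called (27.6% higher, 28% lower), and 3 were higher and 5 lower at 50 μM, where 66.7% were (32% higher, 34.7% lower). S100A8 was 7.13-fold lower at 20 μM and 14.1-fold lower at 50 μM than with cGAMP, and S100A10 was 4.40-fold and 6.06-fold higher. S100A11 was called higher at 50 μM (log2 0.25 ± 0.09, adjusted p = 0.0255), which was lost without cGAMP replicate 1 (0.105) or 3 (0.0564) or 50 μM replicate 1 (0.0716) or 2 (0.0847), and in limma on log2(FPKM + 1) (0.109). The S100A13 call at 50 μM (log2 0.62 ± 0.17) was lost in limma on log2(FPKM + 1) (adjusted p = 0.131).

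Genes for receptors of released S100 proteins, and for the signalling steps after them, rose more often than they fell with chlorquinaldol. Of 12 genes on this list, all tested, 7 rose and 1 fell at 20 μM, and 8 rose and 2 fell at 50 μM, with median log2 changes of 0.43 and 0.60. Over all tested genes 55.1% were called at 20 μM (27.1% higher) and 66.9% at 50 μM (32.2% higher). CD36, a scavenger receptor that takes up fatty acids and binds S100A8 and S100A9 complexes, rose 15.4-fold at 50 μM, from 16.1 to 247 CPM (log2 3.94 ± 0.13, adjusted p = 3.50e-13). TLR4, the receptor of calprotectin, rose 2.77-fold (log2 1.47 ± 0.10) and its co-receptor LY96 9.33-fold (log2 3.22 ± 0.24), although LY96 reached only 6.72 CPM. AGER, which encodes RAGE, went from 5.41 to 7.92 CPM at 50 μM (log2 0.55 ± 0.15, adjusted p = 0.00447), and IRAK1, a kinase of the TLR pathway, fell (log2 −0.50 ± 0.08). With cGAMP 2 rose and 1 fell, beside 23.3% of all tested genes called. MYD88, the TLR adaptor, rose 5.50-fold, CD36 rose 1.37-fold, and TIRAP fell (log2 −0.48 ± 0.15). AGER, IRAK1 and TIRAP were added with their values known.

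Genes listed as partners that S100 proteins bind inside the cell were called about as often as other genes at 50 μM, but more of them rose than fell. Of 20 genes on this list 18 were tested. At 20 μM 9 rose and 3 fell, where 55.1% of all tested genes were called (27.1% higher, 28% lower). At 50 μM 10 rose and 2 fell, where 66.9% were called (32.2% higher, 34.7% lower). The median log2 changes were 0.28 and 0.65, beside −0.00 and −0.03 over all tested genes. The list was chosen with earlier results of these data known. ANXA2, the partner of S100A10, rose 4.24-fold at 50 μM, from 127 ± 6.25 to 538 ± 68.2 CPM (log2 2.08 ± 0.10, adjusted p = 1.62e-11). ANXA1, the partner of S100A11, rose 8.01-fold (log2 3.00 ± 0.13), and ANXA5, a further annexin, 2.90-fold (log2 1.54 ± 0.09). S100A10 gained on ANXA2: their FPKM ratio was 2.41 ± 0.219 in untreated cells, 2.72 ± 0.255 with cGAMP, 4.04 ± 0.557 at 20 μM and 4.55 ± 0.233 at 50 μM. The lowest drug library, at 3.59, stood above the highest untreated one, at 2.63.

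The next genes of the partner list were added with their values known. AHNAK, a large scaffold bound by S100A10 with annexin A2, rose 2.40-fold at 50 μM. PLGRKT, on the list as a plasminogen receptor, fell at that dose (log2 −1.07 ± 0.13). MYH9, the myosin bound by S100A4, fell slightly (log2 −0.28 ± 0.09, adjusted p = 0.00925), and CACYBP, bound by S100A6, had a log2 difference of 0.06 ± 0.09. Of the NADPH oxidase genes, whose enzyme calprotectin is known to assist, CYBB (log2 1.85 ± 0.15) and NCF1 (log2 2.74 ± 0.19) rose at 50 μM, and CYBA had a log2 difference of −0.18 ± 0.10 (adjusted p = 0.105). IL1A, the cargo of S100A13, went from 0.102 to 14.1 CPM at 50 μM, and its untreated libraries held 0.0518 to 0.151 CPM. With cGAMP 5 of the 18 partners rose and 1 fell, beside 23.3% of all tested genes called. Among these partners, ANXA1 rose 1.41-fold.

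**Figure D4:**
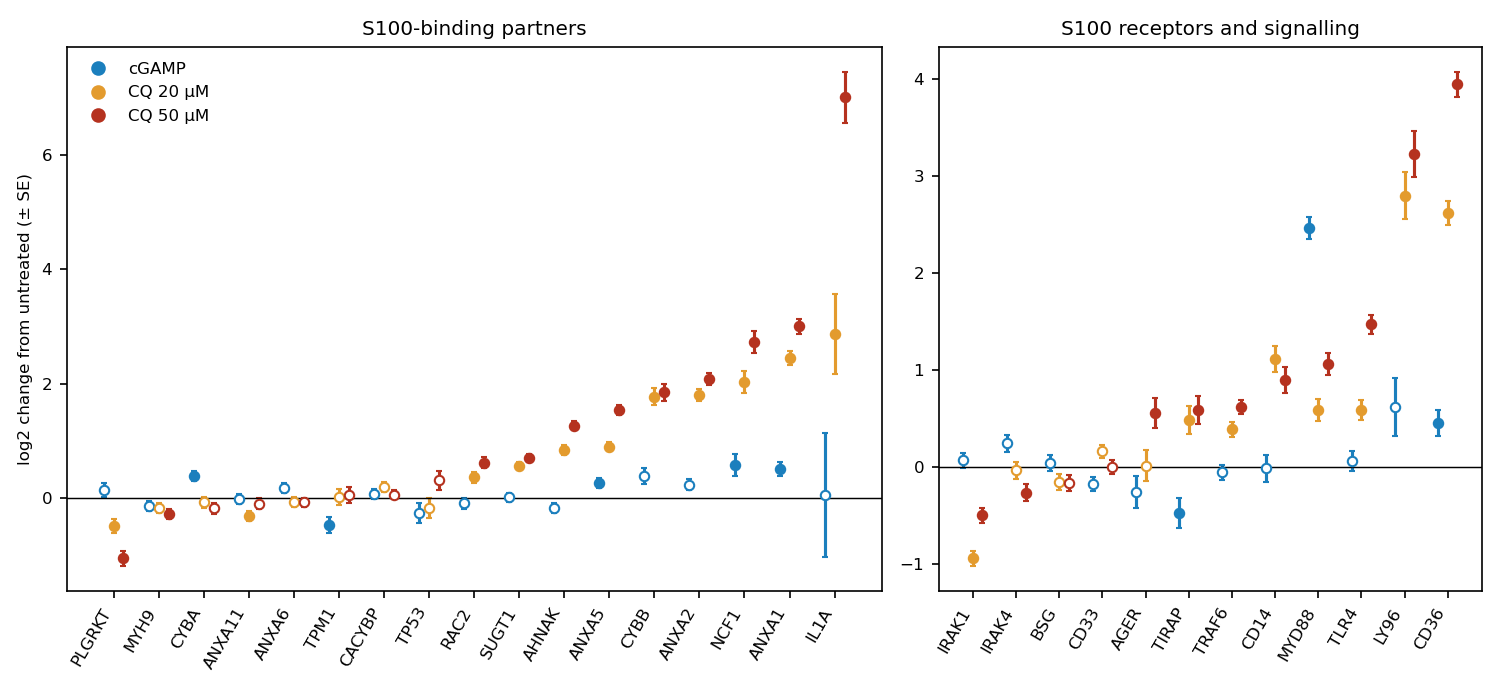
Log2 change from untreated cells (y axis, ± SE) of 17 of the 18 tested S100-binding partners (left) and 12 receptor and signalling genes (right) for cGAMP and chlorquinaldol (CQ) at 20 μM and 50 μM; filled points passed the test. ANXA1, ANXA2 and CD36 are among the genes that rose at 50 μM.

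Transcription factors known to act on the myeloid S100 genes moved in both directions. Of 8, all tested, 1 rose and 1 fell at 20 μM, and 6 rose and 2 fell at 50 μM, beside 55.1% and 66.9% of all tested genes called. CEBPA, a factor of myeloid differentiation, fell 2.61-fold at 50 μM, from 315 to 121 CPM (log2 −1.38 ± 0.09, adjusted p = 2.97e-10). KLF4, a factor of monocyte differentiation, rose 4.17-fold (log2 2.06 ± 0.12) and the NF-kB subunit gene RELA 1.88-fold (log2 0.91 ± 0.10). With cGAMP 3 rose and 2 fell, beside 23.3% of all tested genes called, with HIF1A 1.28-fold higher and CEBPA 1.27-fold lower.

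Markers were used to check what the cells are. All 12 monocyte markers were tested and none was at 0, with a summed level of 1705 to 1761 FPKM in untreated libraries, 1838 to 2004 in cGAMP libraries, and with chlorquinaldol 1669 to 1728 (20 μM) and 1760 to 1928 (50 μM). At 50 μM 6 of them rose and 4 fell, where 66.9% of all tested genes were called (32.2% higher, 34.7% lower). The integrin gene ITGAM rose 3.08-fold and the growth factor receptor gene CSF1R 2.67-fold, and the lysozyme gene LYZ fell 2.17-fold. Of 8 neutrophil and granule markers 4 were tested, and ELANE, CXCR2 and CSF3R fell at 50 μM by 3.27-fold, 4.16-fold and 2.24-fold, beside S100A8 and S100A9. The fourth, MMP8, rose from 0.458 to 0.903 CPM. Their summed level was 407 to 472 FPKM in untreated libraries, 409 to 492 in cGAMP libraries, and with chlorquinaldol 180 to 195 (20 μM) and 119 to 139 (50 μM), most of it ELANE. The part of these markers in the S100 changes was not tested. Summed markers of T and NK cells (14.7 to 24.6 FPKM), B cells (6.68 to 17.9), epithelium (0.12 to 0.66), fibroblasts (1.06 to 3.26) and erythroid cells and megakaryocytes (0.44 to 2.02) were low in every library, with MS4A1, KRT5, KRT19 and HBB at 0 in every group.

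Position on chromosome 1 did not go with a shared direction over the whole set. S100A9, S100A12 and S100A8 fell, while S100A10 at the far end rose most, and S100A4, S100A6 and S100A13 on the other side differed in direction. Of 20 further genes of the region that are not S100 genes, 17 were tested. At 20 μM 6 rose and 3 fell, where 55.1% of all tested genes were called (27.1% higher, 28% lower). At 50 μM 9 rose and 2 fell, where 66.9% were called (32.2% higher, 34.7% lower), so more of them rose than fell. All 17 lie beyond S100A13 (153633982 to 154275875). PGLYRP3 and PGLYRP4, between S100A11 and S100A9, were too low to test, so no tested neighbour stands beside the genes that fell. ILF2 (2.30-fold lower), RAB13 (2.00-fold higher) and SLC39A1, a zinc transporter gene (1.80-fold higher), had the smallest p-values of these. With cGAMP 2 rose and 2 fell, beside 23.3% of all tested genes called. SLC27A3 (log2 0.49 ± 0.11) and CREB3L4 (log2 −0.36 ± 0.11) were among them.

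**Figure D5:**
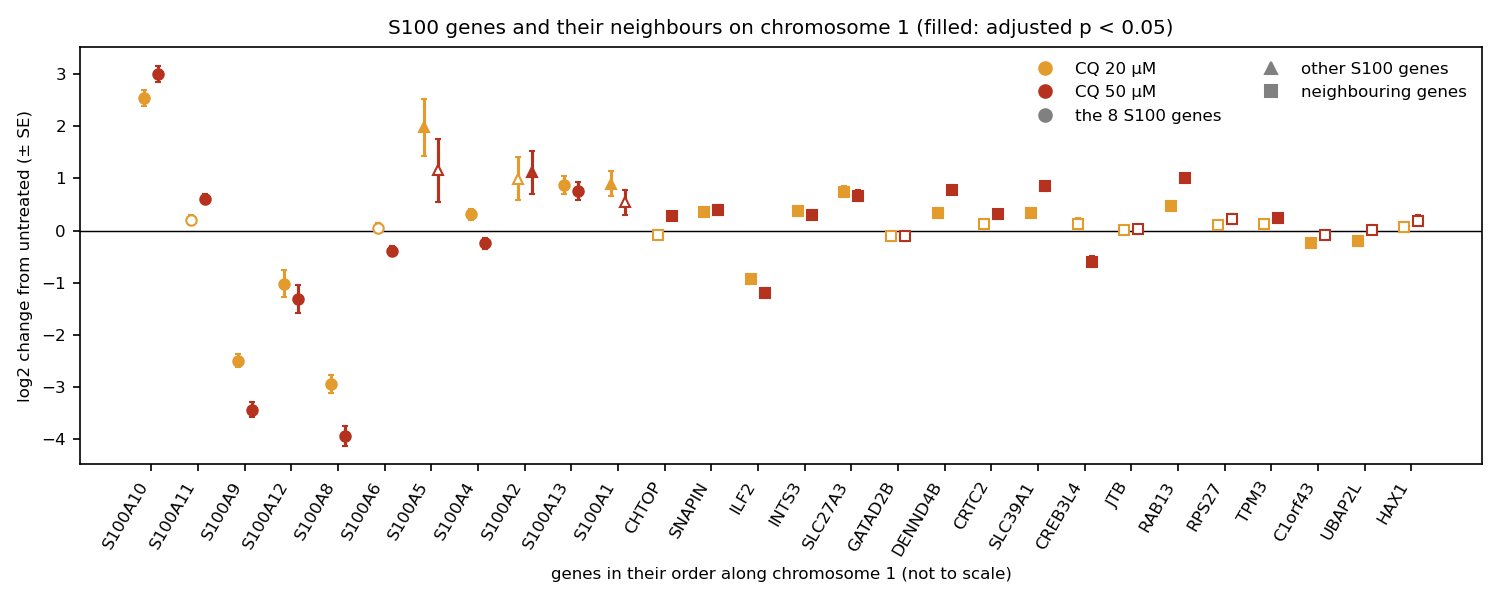
Log2 change from untreated cells (y axis, ± SE) at 20 μM and 50 μM chlorquinaldol (CQ) for the tested S100 genes and 17 neighbouring genes, in their order along chromosome 1 and not to scale; filled points passed the test. S100A9, S100A12 and S100A8 form a run of decreases next to each other. The 17 neighbouring genes all lie beyond S100A13, away from this run.

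The genes whose profile over the 12 libraries was most like each S100 gene were found among 11043 others by the root mean square difference of centred log2 CPM. For S100A8 they were BEX1 (0.22) and KIF20A (0.25), for S100A9 ERLIN1 and RET (0.18 each), and for S100A12 PAK1IP1 and BANK1 (0.22 each). S100A10 was most like EGLN3 (0.19) and ANXA1 (0.20), and S100A11 most like ATP6V0E1 (0.07) and CD74 (0.09). S100A4 was nearest to GPX1 (0.09) and APOBEC3C (0.10), and S100A6 to PPIC (0.08) and TNFSF13 (0.09). CCDC50 was among the nearest to S100A13 (0.16). These differences are small beside the spread of S100A8 itself over the libraries (SD 1.82 on the log2 scale) but less so beside that of S100A4 (SD 0.25).

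Of 13 other S100 genes, S100A1, S100A2, S100A5 and S100P passed the filter. S100P, which lies outside the cluster, stood at 2.06, 2.20 and 2.48 CPM in untreated cells and at 4.58, 6.85 and 10.3 CPM at 50 μM, a 3.22-fold rise (log2 1.69 ± 0.27, adjusted p = 3.08e-05). At 20 μM, with 1.28 to 2.50 CPM, it was not called (log2 −0.41 ± 0.32, adjusted p = 0.297). S100A2 rose at 50 μM (log2 1.12 ± 0.41, adjusted p = 0.0240), from 22 to 44 counts over the 3 libraries. S100A1 (log2 0.90 ± 0.24, adjusted p = 0.00408) and S100A5 (log2 1.98 ± 0.55, adjusted p = 0.00528) were called at 20 μM and not at 50 μM, where the log2 differences were 0.54 ± 0.25 and 1.16 ± 0.60. Untreated libraries held 4 to 9 counts of S100A2 and 0 to 7 of S100A5, below the minimum count of 10. Both genes passed the filter through their drug libraries, so the filter favoured a rise and their calls are no support for one. With cGAMP none of the 4 was called, the smallest adjusted p in edgeR being 0.623 (S100P).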

How the data were processed

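Gene tables of 12 THP-1 libraries were used. The authors' estimated counts and FPKM came from RSEM on GRCh38, per the submitters' processing notes, and were deposited as 62914 entries each. RSEM's version, the annotation and the counting strand are not given in the sources used here. Libraries were poly(A)-selected and run on a BGI instrument, per the labels. Counts were rounded (42.1% of cells above 0 were not whole), and 326 entries without a gene ID (0.182% to 0.290% of counts) were left out. All other steps used edgeR 4.0.16 in R 4.3.3: filterByExpr (minimum count 10), TMM (factors 0.905 to 1.06), 1 quasi-likelihood model of 4 groups, and Benjamini-Hochberg adjustment over 16628 genes. SE is the log2 change over the square root of F. TMM centres on the bulk of genes, so a change in RNA per cell is not seen. The 8 genes and all lists were chosen with earlier results of these data known. Genes were named by a rule: all members, other tested S100 genes, per list the 3 smallest p at 50 μM and 2 with cGAMP, and 2 nearest profiles per member, with 5 CPM or more; results of some of these are not reported here. Alternatives were upper-quartile and RLE factors, DESeq2 1.42.0, 2 filters, fits of the groups compared, a replicate block, limma 3.58.1 on log2(FPKM + 1) and log2(FPKM + 0.1), and each library left out. Sequences are from RefSeq. Scripts were tested on simulated data.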

Additional observations from a re-analysis of the deposited data

How the results depend on the processing

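Scaling, filter, tool, unit, fit and library left out were varied, and no called change of the 8 S100 genes changed its sign. The number of the 8 genes called for cGAMP against untreated cells, 2 in the report, was the count that moved by over 1.5 times: it was 1 with upper-quartile factors, with the replicate block, in limma on log2(FPKM + 1) and on log2(FPKM + 0.1), 4 (3 higher, 1 lower) when only these groups were fitted, and 0 in limma without a filter. Leaving out single libraries gave 0 to 2. Over all genes, cGAMP calls fell from 3875 to 2038 in limma without a filter. Counts of S100 genes called for the other 5 comparisons stayed within 1.5 times of those in the report. Of the single-gene values, 445 kept their side of the threshold in the other settings, 22 lost and 7 gained a call, and 270, 17 and 1 did so when a library was left out. S100A8, S100A9, S100A10 and S100A13 kept their calls against untreated cells at both drug doses in all settings run, and S100A12 did in all but the filter of 5 CPM in 3 libraries, which removed it from the test. The cause of the moves was not tested. Correlations of same-numbered deviations ran from −0.113 to 0.0671, so no pairing by replicate number was seen over all genes. A batch shared by some libraries was not tested. The block changed only the S100A10 call with cGAMP among member calls (adjusted p = 0.0722). Calls are limited by low counts for S100A12 and S100A13. With 3 libraries a group the smallest exact p is 0.1, so the tests lean on the spread pooled over genes.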

Other observations

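Other EF-hand calcium-binding protein genes moved in both directions with chlorquinaldol. Of 31 such genes, all tested, 8 rose and 11 fell at 20 μM and 9 rose and 14 fell at 50 μM, beside 55.1% and 66.9% of all tested genes called, with median log2 changes of 0.05 and −0.11. At 50 μM EFHD2, a calcium-binding actin regulator, rose 2.24-fold (log2 1.16 ± 0.09), CAPN2, a calcium-activated protease, rose 2.09-fold (log2 1.06 ± 0.08), and NUCB2, a secretory calcium-binding protein, fell 2.06-fold (log2 −1.04 ± 0.10, adjusted p = 3.94e-08). With cGAMP 4 rose and 4 fell, beside 23.3% of all tested genes called. GCA, which encodes grancalcin, rose 2.44-fold (log2 1.29 ± 0.09) and CAPN2 1.72-fold. Among calmodulin genes, picked after their values were seen, CALM2 rose (log2 0.59 ± 0.09) and CALM3 fell (log2 −0.80 ± 0.08) at 50 μM.

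The remaining S100 genes were too low to test. S100B held 25, 18, 10 and 1 counts over the 3 libraries of untreated cells, cGAMP, 20 μM and 50 μM, and S100A3 held 3, 11, 8 and 4. S100A14 held 5 counts and S100Z 1 over all 12 libraries, and S100A7, S100A7A, S100A7L2, S100A16 and S100G held 0.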
